A study of Mus musculus with 21 samples.

Results

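The comparison set lung fibroblasts taken 63 days after bleomycin (BLM day 63) against those taken 14 days after it (BLM day 14), with 3 libraries in each group. The 6 libraries were those titled as bleomycin day 63 and day 14 with replicate numbers 1 to 3, out of 21 in the series, and all 23204 gene symbols in the files were considered. BLM day 63 and BLM day 14 mice were female C57BL/6 animals with a Col1a2-GFP transgene, given a single dose of bleomycin sulfate at 2 mg/kg by oropharyngeal aspiration. SiO2 day 63, SiO2 day 14 and untreated mice carried the same transgene, and the SiO2 groups had received crystalline silica at 400 mg/kg by the same route. Untreated mice were taken as day 0. The labels do not give the age of the mice. GFP in these mice is driven by the promoter of Col1a2, so the cells were chosen by the activity of a collagen promoter, and Col1a2 itself is tied to that choice. Cells of each sample (10000) were negative for CD45, CD31, EpCAM, CD146 and Ter119, and the 3′ ends of their polyadenylated RNA were counted (3′SAGE-seq). The series calls fibrosis after bleomycin reversible and fibrosis after silica progressive, and the comparison asks what fibroblasts express as the reversible form resolves.

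Bleomycin breaks DNA, injures the lung epithelium and is followed by a phase in which fibroblasts divide, contract and lay down collagen, fibronectin and elastin. In mice given a single dose this scar is cleared over the following weeks. Fibroblasts of the healthy alveolar wall store lipid and retinoids, while those of the adventitia around vessels and airways carry their own set of secreted proteins. Matrix-producing fibroblasts of fibrotic lungs are known for collagen, periostin (Postn), Cthrc1 and contractile genes such as Acta2.

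Total counts of the 6 libraries ran from 2904599 to 4298554, and 15193 to 16188 symbols had a count in a library. Values in CPM are counts per 1000000 on library sizes scaled by TMM, not divided by transcript length, since a 3′ tag is taken from the end of each transcript. A value with ± in brackets after a gene is its log2 fold change of BLM day 63 over BLM day 14 with its standard error, and CPM means have an SD over 3 libraries. All 8 fibroblast markers were tested and detected, at a sum of 27939.8 to 31330.3 CPM in BLM day 63 libraries and 39361 to 43026 CPM in BLM day 14 libraries. Markers of other cell types were low. The 12 myeloid markers in the files summed to 9.78 to 21.7 CPM at day 63 and 26.1 to 34.1 CPM at day 14, and 2 of the 4 tested (Tyrobp and C1qa) fell, C1qa with no call without BLM day 63 replicate 3 (edgeR's adjusted p = 0.0656). Ptprc, which encodes CD45, had no count at day 14, and Csf1r, Itgam and C1qb had none at day 63. The sum was 4.0 to 6.47 CPM at day 63 and 9.40 to 15.9 CPM at day 14 for lymphocyte markers, of which Cd3e, Cd3g and Cd79b had no count in the 6 libraries and Ccl5 fell. Endothelial markers summed to 12.9 to 19.9 CPM at day 63 and 16.7 to 24.0 CPM at day 14. Of these, Cdh5 and Cldn5 had no count, Plvap fell and Tek rose. For epithelial markers the sums were 7.47 to 11.2 CPM at day 63 and 7.46 to 8.96 CPM at day 14, with no count for Cdh1 and a rise of Sftpc. Mesothelial markers summed to 357 to 435 CPM at day 63 and 391 to 445 CPM at day 14, mostly from Upk1b, and Msln fell. The pericyte and smooth muscle markers summed to 153 to 177 CPM at day 63 and 273 to 350.0 CPM at day 14. The lower sum at day 63 lay in Actg2, which averaged 9.49 CPM at day 63 and 200 CPM at day 14. The other markers of that list together were not lower. Erythroid markers reached 2.22 CPM at most. The part of these cells in the results was not tested. BLM day 14 replicate 1 lay apart from the other BLM day 14 libraries on the second principal component (10.7% of the variance of the 6 libraries), and counts without it are given beside the results they move. The share of counts in ribosomal RNA entries was 0.290% to 0.342% at day 63 and 0.419% to 0.493% at day 14.

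Of 11669 genes that passed the filter on low counts, 3768 (32.3%) differed between BLM day 63 and BLM day 14 in edgeR's quasi-likelihood test at an adjusted p under 0.05. Expression was higher at day 63 for 1796 genes (15.4%) and lower for 1972 (16.9%). Among the called genes, large differences were more numerous on the lower side. Of the genes that were higher, 142 differed by over 4-fold and 13 by over 10-fold. Among the genes that were lower, 288 differed by over 4-fold and 95 by over 10-fold, with 23 genes that had no count at day 63 set to their lower bound. Median sizes were alike, at 1.79-fold for the higher and 1.77-fold for the lower genes. Genes called lower made up 26.7% of all CPM at day 63 and 46.2% at day 14, while genes called higher made up 31.1% at day 63 and 18.7% at day 14. The first principal component held 64.8% of the variance of the 6 libraries and separated the days. The labels do not say whether libraries of a group came from separate mice, so the p-values measure the spread between these samples, which may be technical. Leaving out BLM day 14 replicate 1 gave 3006 called genes. Counts of list members given below stand beside the 15.4% higher and 16.9% lower over all tested genes. The shares of higher members in the protease, Wnt, IGF, p53, glycolysis and lysosome lists and of lower members in the oxidative phosphorylation list were near these and are no result about those lists.

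**Figure D1:**
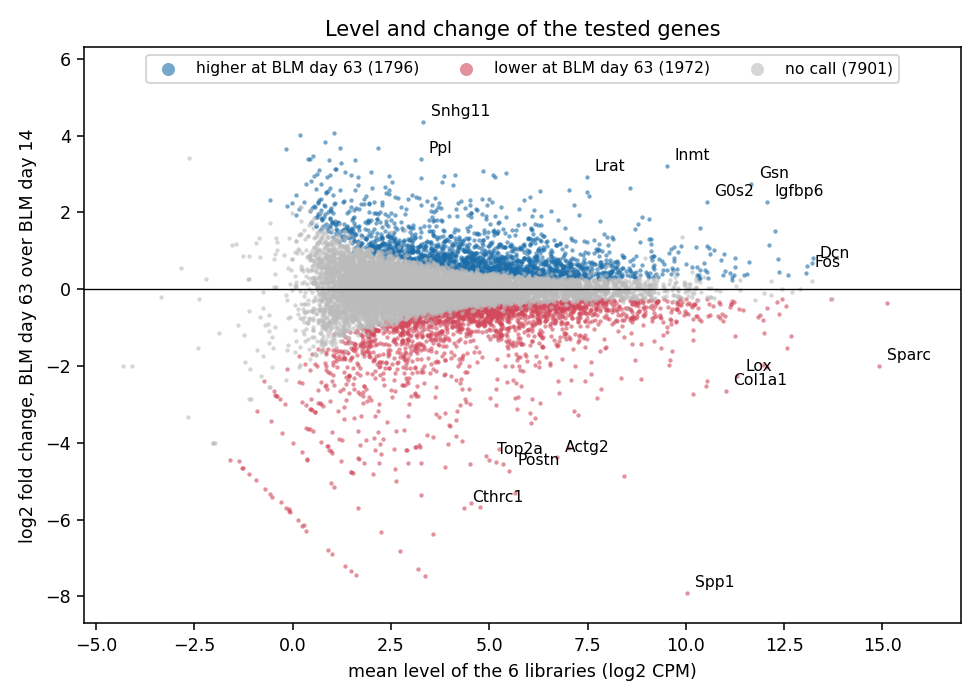
Each point is 1 of the 11669 tested genes, placed by its mean level in the 6 libraries (x axis, log2 CPM) and its log2 fold change of BLM day 63 over BLM day 14 (y axis). Blue genes (1796) were higher and red genes (1972) lower at an adjusted p under 0.05, and the lower genes reach farther from 0 than the higher ones, with Spp1 at -7.90 and Snhg11 at 4.35.

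The fibrillar collagens were lower at BLM day 63 than at day 14. Of the 10 tested, 8 fell and none rose, with a median log2 change of -1.74, beside -0.01 over all tested genes. Col1a1 (chromosome 11, 94936224 to 94953042 in the GENCODE annotation of mm10), which encodes the main chain of type I collagen, had 505, 606 and 584 CPM in the BLM day 63 libraries, against 3956, 3316 and 3414 CPM in the BLM day 14 libraries. No day 63 value came near the day 14 values, and the log2 change was -2.66 ± 0.14 (adjusted p = 5.13e-15 in edgeR's test). Its partner chain Col1a2, whose promoter drives the sorting marker, had 1471, 1728 and 1668 CPM at day 63, against 6637, 6335 and 6060.4 CPM at day 14, a log2 change of -1.97 ± 0.10. Type III collagen, Col3a1, had 2519, 3807 and 3098 CPM at day 63, against 9533, 8692 and 8771 CPM at day 14, with a smaller fitted fall (log2 change -1.52 ± 0.12). In all 3 genes the groups were far apart. The minor chains that start type I fibrils, Col5a1 (log2 change -2.35 ± 0.13) and Col5a2 (-2.31 ± 0.15), fell too. The largest log2 fall in the list was that of Col11a1 (-5.29 ± 0.59), a fibril-nucleating chain best known from cartilage, at 2.42 ± 1.74 CPM at day 63 and 98.4 ± 57.7 CPM at day 14. Col24a1, a fibrillar collagen known from bone, fell least among the called members (log2 change -0.53 ± 0.20), at 49.6 ± 15.4 CPM at day 63 and 71.2 ± 3.59 CPM at day 14. Its call was weak, and it was lost in DESeq2 (adjusted p = 0.137) and in edgeR under upper quartile scaling (0.0694), with a mean of 5 CPM required (0.0523) and without any one of the 6 libraries other than BLM day 63 replicate 2 (0.0669 to 0.263). The other member, Col2a1, passed no filter on low counts. In sorted bulk samples, fewer cells that express a gene and less RNA per cell cannot be told apart.

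Most of the other interstitial collagens fell. Of 16 tested, 10 fell and 2 rose, or 1 without BLM day 63 replicate 2 or BLM day 14 replicate 1 (median log2 change -0.62). Col8a1 (log2 change -3.80 ± 0.44), Col7a1 (-2.83 ± 0.17), the anchoring fibril collagen, and the fibril-associated Col12a1 (-1.97 ± 0.20) fell. Type VI collagen chains Col6a1 (log2 change -0.57 ± 0.11) and Col6a3 (-0.60 ± 0.11) fell, while the third chain, Col6a2 (0.18 ± 0.11), had no call. Col13a1, a transmembrane collagen, went the other way with 1299, 1035 and 1038 CPM at day 63, against 382, 649.6 and 534 CPM at day 14. Of the genes that modify, process and cross-link collagen 19 of 27 tested fell and 1 rose, or 2 without BLM day 14 replicate 2 (median log2 change -0.77). Lysyl oxidase, Lox, which starts cross-linking, had 1167, 766 and 681 CPM in the BLM day 63 libraries, against 4064, 4405 and 4141 CPM in the BLM day 14 libraries. The groups were far apart (log2 change -2.27 ± 0.16). The prolyl hydroxylase subunits P4ha3 (log2 change -2.02 ± 0.19) and P4hb (-0.77 ± 0.10), the procollagen C-proteinase Bmp1 (-1.76 ± 0.20) and the collagen chaperone Fkbp10 (-1.20 ± 0.13) were lower too. The exception, Pcolce2, an enhancer of procollagen cleavage, had 359.9, 304 and 256 CPM at day 63, against 41.7, 60.7 and 55.8 CPM at day 14, a log2 rise of 2.53 ± 0.16.

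Matricellular and adhesive glycoproteins, which tune how cells attach to the matrix, were mostly lower. Of 27 tested, 16 fell and 7 rose (median log2 change -0.65). Osteopontin, encoded by Spp1 (chromosome 5, 104435118 to 104441050), had 10.5, 12.6 and 3.78 CPM in the BLM day 63 libraries, against 2824, 1718 and 1716 CPM in the BLM day 14 libraries. Every day 63 value was far below every day 14 value, and the log2 change was -7.90 ± 0.42. Cthrc1, a secreted protein that marks matrix-producing fibroblasts, had 0.747, 0.861 and 0.667 CPM at day 63, against 38.8, 43.9 and 38.4 CPM at day 14 (log2 change -5.69 ± 0.35). Periostin, encoded by Postn (chromosome 3, 54361109 to 54391037), had 2.99, 3.44 and 3.34 CPM at day 63, against 108, 73.8 and 81.2 CPM at day 14, again with no overlap (log2 change -4.74 ± 0.32). The transmembrane protein Lrrc15 (log2 change -4.04 ± 0.34), thrombospondin-2 (Thbs2, -2.52 ± 0.18) and tenascin-C (Tnc, -2.22 ± 0.18) fell as well. Fibronectin, Fn1, had 293, 334 and 292 CPM at day 63, against 2234, 1919.9 and 1889 CPM at day 14, and it fell by 6.57-fold. Sparc, a collagen-binding glycoprotein, had 12016, 13193 and 11964 CPM at day 63, against 44207, 55961 and 47207 CPM at day 14, and it fell by 3.96-fold. The members that rose included tenascin-X (Tnxb, log2 change 2.35 ± 0.27), Spon2 (1.70 ± 0.19) and Ecm2 (1.59 ± 0.15). Tenascin-X and tenascin-C thus lay on opposite sides of 0. Tnxb had 63.5, 51.9 and 44.5 CPM at day 63, against 6.00, 10.5 and 14.1 CPM at day 14.

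Of the elastic fibre genes, 10 of 17 tested fell and 5 rose (median log2 change -0.60). Elastin, Eln, had 415, 568 and 442 CPM at day 63, against 2577, 2339.7 and 2573 CPM at day 14, and it fell by 5.26-fold. Fibrillin-2 (Fbn2), a microfibril protein of developing tissue, had 1 count in all BLM day 63 libraries together and 202 in the BLM day 14 libraries, a ratio of 247-fold (95% counting interval 43.9 to 9820.3) toward day 14. Fibrillin-1 (Fbn1, log2 change -1.42 ± 0.11), Mfap2 (-1.93 ± 0.27) and Ltbp2 (-1.51 ± 0.19) fell. Ltbp4, which tethers latent TGF-beta to elastic fibres, had 832, 797 and 882 CPM at day 63, against 223, 236 and 251 CPM at day 14, and it rose (log2 change 1.82 ± 0.19), as did the fibulins Fbln1 (1.24 ± 0.12) and Fbln5 (0.84 ± 0.16). Fbln2, another fibulin, fell (log2 change -1.45 ± 0.23), and it was named after its values were seen. In the basement membrane list 9 of 18 tested fell and 5 rose (median log2 change -0.34). Type IV collagen chains Col4a1 (429 ± 56.0 CPM at day 63 and 2475 ± 377 CPM at day 14) and Col4a2 (1687 ± 128 CPM at day 63 and 6825 ± 62.0 CPM at day 14) fell by 5.76-fold and 4.05-fold. Nephronectin, Npnt, a ligand of integrin alpha 8 made by alveolar fibroblasts, had 1836, 1573 and 1569 CPM at day 63, against 651, 836 and 819.9 CPM at day 14, and it rose (log2 change 1.11 ± 0.14). Among 23 proteoglycan and hyaluronan genes 10 fell and 5 rose (median log2 change -0.30). Syndecan-1 (Sdc1, log2 change -2.43 ± 0.32), fibromodulin (Fmod, -1.89 ± 0.20) and biglycan (Bgn, -0.53 ± 0.08) fell, and decorin (Dcn, 0.67 ± 0.16) and Prelp (0.86 ± 0.10) rose. Decorin, a small proteoglycan that binds collagen fibrils, had 12247, 11788 and 10874 CPM at day 63, against 5157, 8176 and 8573 CPM at day 14.

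**Figure D2:**
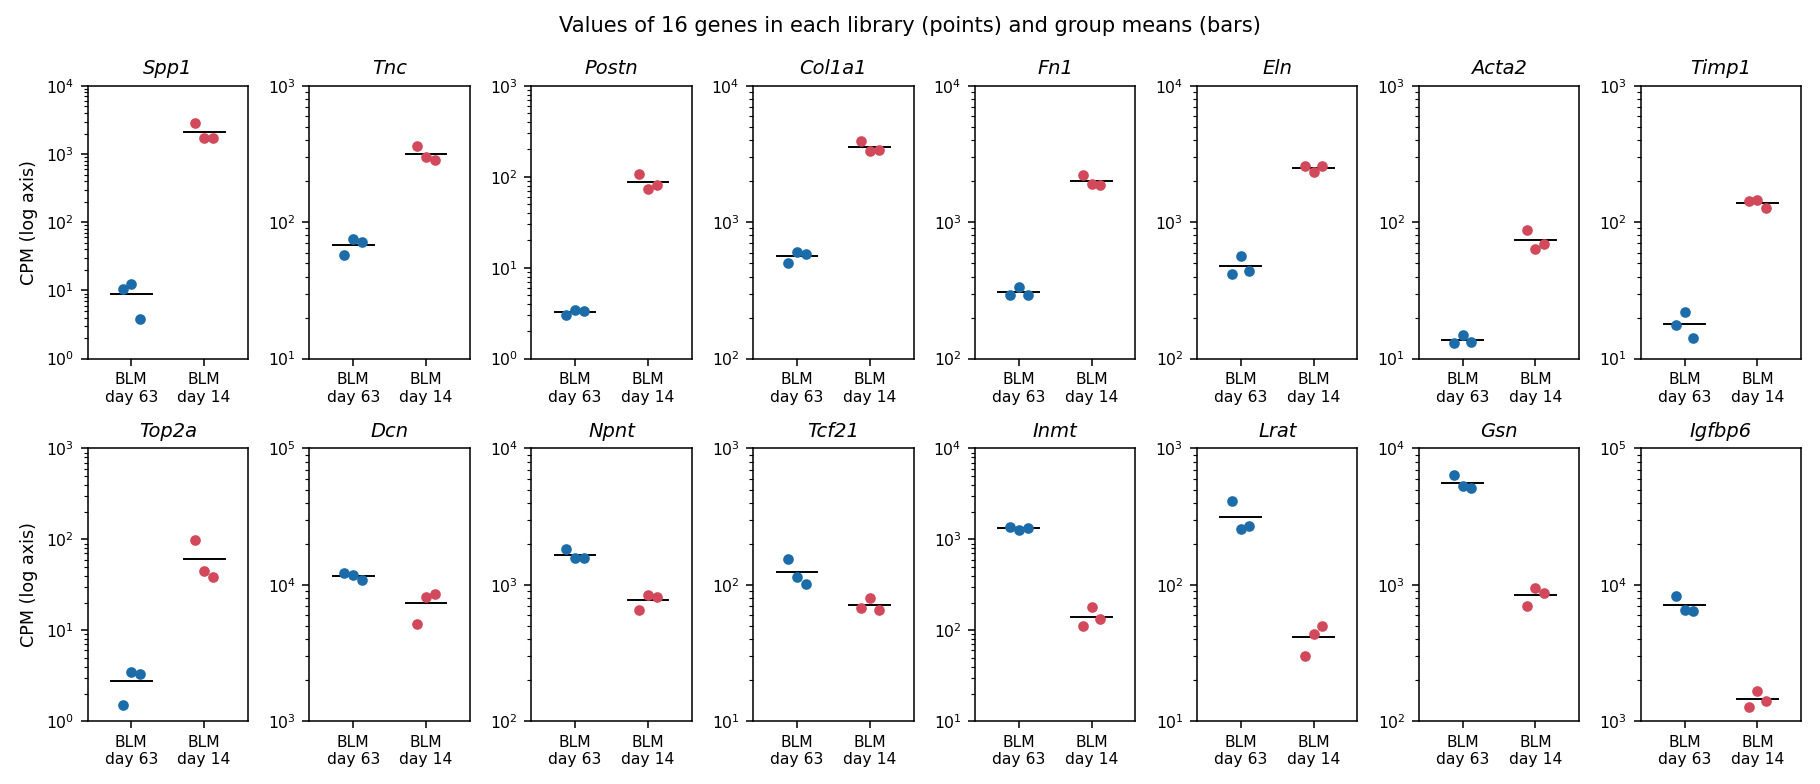
Each panel shows CPM on a log axis for 1 gene in the 3 BLM day 63 libraries (blue, left) and the 3 BLM day 14 libraries (red, right), with bars at the group means. Matrix, contractile and mitotic genes (first 9 panels) lie lower at day 63 and the other 7 genes lie higher, and in none of the 16 panels do the groups overlap, as was so for 44.2% of the 11669 tested genes.

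Matrix proteases and their inhibitors moved mostly downward, with 20 of 37 tested lower and 7 higher (median log2 change -0.52). Timp1, an inhibitor of matrix metalloproteinases, had 17.7, 21.8 and 14.2 CPM at day 63, against 143, 145 and 128 CPM at day 14, and it fell by 7.79-fold. Its relative Timp3, which is bound to the matrix, rose (log2 change 0.75 ± 0.13), at 710.3 ± 37.8 CPM at day 63 and 421 ± 99.8 CPM at day 14. The metalloproteinase Adam12 (chromosome 7, 133883199 to 134232146), a marker of activated mesenchyme, had 1.24, 1.43 and 0.445 CPM at day 63, against 74.2, 45.4 and 39.0 CPM at day 14, which gave a log2 change of -5.66 ± 0.40. Mmp14, the membrane-bound collagenase, fell, at 2548 ± 104 CPM at day 63 and 5572 ± 382 CPM at day 14. Cathepsin K (Ctsk, log2 change -2.00 ± 0.23), which degrades collagen in lysosomes, and the serpin Serpine2 (-1.25 ± 0.12) fell. Mmp3 (log2 change 1.18 ± 0.19) and Adamts10 (1.30 ± 0.13) rose. Of 13 integrin chains 5 fell and 1 rose. Itga5, the fibronectin receptor chain, fell by 6.99-fold, and Itga8, the nephronectin receptor chain, rose by 2.46-fold with 752, 717 and 795 CPM at day 63, against 297, 339 and 284 CPM at day 14.

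Contractile and cytoskeletal genes were lower, 16 of 27 tested against 3 higher (median log2 change -0.60). Smooth muscle actin, Acta2, had 12.9, 14.9 and 13.3 CPM at day 63, against 88.3, 63.6 and 68.8 CPM at day 14, and the groups did not overlap (log2 change -2.42 ± 0.22). Enteric actin, Actg2, moved further, with 11.4, 7.46 and 9.56 CPM at day 63, against 263, 175 and 163 CPM at day 14, and a fall of 20.8-fold. Transgelin (Tagln, log2 change -1.88 ± 0.24), the tropomyosins Tpm1 (-1.18 ± 0.15) and Tpm2 (-1.60 ± 0.15) and nonmuscle myosin Myh9 (-1.36 ± 0.14) fell. Myh10 (log2 change 0.36 ± 0.09) and Zyx (0.58 ± 0.11) rose. Acta2 and Actg2 are also genes of smooth muscle and pericytes. In the list of pericyte and smooth muscle markers 3 of 7 tested fell (Actg2, Cspg4 and Notch3) and Abcc9 rose by 2.49-fold, with 2 higher without BLM day 14 replicate 3. Myh11, which defines smooth muscle, averaged 3.94 ± 0.576 CPM at day 63 and 1.83 ± 0.746 CPM at day 14 with no call (adjusted p = 0.0491 in edgeR with only the 6 libraries fitted). The part of such cells in the contractile result was not tested.

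Genes of mitosis and the spindle were lower at BLM day 63. Of 58 listed, 44 passed the filter, 40 of these fell and none rose. The median log2 change was -3.45, or -3.07 with the 6 members that had no count at day 63 set to their bound. The other 14 were removed by the filter on low counts, which a gene can pass through the groups in which it is high, so the count of called members is a description. Topoisomerase Top2a (chromosome 11, 98992943 to 99024189), which untangles chromosomes, had 1.49, 3.44 and 3.34 CPM in the BLM day 63 libraries, against 99.6, 45.4 and 39.0 CPM in the BLM day 14 libraries. BLM day 14 replicate 1 was the highest by far, and without that library 38 members were lower. The proliferation antigen Mki67 had 0.498, 0.287 and 0.222 CPM at day 63, against 18.4, 9.86 and 7.74 CPM at day 14 (log2 change -5.00 ± 0.55). Spindle genes Nusap1 (log2 change -2.25 ± 0.26) and Ckap2l (-4.54 ± 0.48), the kinetochore subunit Spc24 (-3.12 ± 0.25) and the condensin genes Ncapg (-4.10 ± 0.37), Smc2 (-1.38 ± 0.16) and Smc4 (-1.33 ± 0.16) fell. Summed over the list, CPM ran from 157 to 185 at day 63 and from 547 to 961 at day 14. Of 47 DNA replication genes 34 passed the filter, 18 of these fell, or 9 with a mean of 5 CPM required, and none rose (median log2 change -1.03). Thymidine kinase Tk1 had 4.48, 3.44 and 3.78 CPM at day 63, against 105, 63.6 and 46.7 CPM at day 14. The replication factor Gins2 had 8.21, 10.3 and 5.78 CPM at day 63, against 79.8, 63.0 and 50.6 CPM at day 14. In both genes BLM day 14 replicate 1 was the highest library and the groups did not overlap. Asf1b, a histone chaperone, had no count at day 63 and was at least 6.12-fold lower, against a floor of 3 counts over the group. Counting intervals and floors here cover counting error only, since the tags carry no molecular identifiers.

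Promoters of members of these lists are described next, and no link between a motif and the fall was tested. RefSeq promoters on GRCm38.p6, 250 bases before to 50 after the start, were matched for 33 of the 40 mitotic genes that fell. The cell cycle homology region, whose core is TTTGAA, was present on either strand in 26 of them (78.8%), against 20.2% of the 27025 genes with a promoter in the table. The CCAAT box was present in 27 (81.8%), against 41.1% of all genes. Both stood in the same promoter in 24 (72.7%), against 7.97% of all genes. Over all 47 matched members of the mitotic list, fallen or not, TTTGAA was present in 78.7%, CCAAT in 72.3% and both in 66.0%, close to the shares among the members that fell, and no difference between them was tested. Of the 16 matched DNA replication genes that fell, 2 (12.5%) held the E2F-like motif TTTGGCGC and 3 (18.8%) held TTTCCCGC. Over all 38 matched members of that list the numbers were 8 (21.1%) and 6 (15.8%), against 0.585% and 1.24% of all genes. CCAAT was also frequent in the DNA replication list, in 11 of the 16 that fell (68.8%) and in 63.2% of all matched members. TTTGAA was present there in 3 of the 16 (18.8%) and in 15.8% of all matched members. Both strands were searched for each motif, and TTTGAA and CCAAT were allowed to overlap. A match is a description of the letters and not a site. Nusap1, which fell, had no match to TTTGAA or CCAAT in its promoter. The promoters of Top2a, Ncapg and Mki67, which hold both motifs, are given in full, with matches to TTTGAA or CCAAT on either strand in capitals and each sequence given 5′ to 3′ on the strand of its gene.
Top2a, chr11:99024140-99024439, minus strand: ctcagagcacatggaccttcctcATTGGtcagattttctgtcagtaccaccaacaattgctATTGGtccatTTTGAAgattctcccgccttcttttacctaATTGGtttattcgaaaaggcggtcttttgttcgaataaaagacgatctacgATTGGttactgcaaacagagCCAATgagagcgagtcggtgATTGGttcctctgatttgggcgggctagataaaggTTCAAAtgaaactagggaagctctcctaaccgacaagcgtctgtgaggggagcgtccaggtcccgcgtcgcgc
Ncapg, chr5:45669675-45669974, plus strand: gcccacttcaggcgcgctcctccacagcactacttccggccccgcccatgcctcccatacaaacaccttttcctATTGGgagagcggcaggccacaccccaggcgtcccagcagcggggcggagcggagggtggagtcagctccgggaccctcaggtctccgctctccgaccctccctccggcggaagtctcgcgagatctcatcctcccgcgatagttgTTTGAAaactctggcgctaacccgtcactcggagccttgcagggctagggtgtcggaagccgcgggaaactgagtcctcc
Mki67, chr7:135716330-135716629, minus strand: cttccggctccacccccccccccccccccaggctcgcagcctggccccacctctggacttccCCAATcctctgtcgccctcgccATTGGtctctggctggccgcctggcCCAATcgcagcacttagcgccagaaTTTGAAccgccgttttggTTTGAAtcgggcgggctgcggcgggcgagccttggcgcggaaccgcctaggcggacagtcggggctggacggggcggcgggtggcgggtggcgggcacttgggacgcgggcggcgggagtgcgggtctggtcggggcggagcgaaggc

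Genes of signalling pathways changed in both directions. In the list of TGF-beta, activin and BMP signalling 16 of 37 tested fell and 10 rose (median log2 change -0.39). Of the ligands, Tgfb1 fell by 3.10-fold, at 11.9 ± 1.89 CPM at day 63 and 36.9 ± 10.1 CPM at day 14, while Bmp3 rose by 2.78-fold, at 54.1 ± 8.17 CPM at day 63 and 19.4 ± 1.64 CPM at day 14. The secreted antagonist follistatin (Fst), which blocks activins, had 2.99, 2.30 and 3.11 CPM at day 63, against 61.1, 51.4 and 60.5 CPM at day 14, and it fell by 20.1-fold. The receptors also parted, as Bmpr2 fell (log2 change -0.75 ± 0.09) and the co-receptor Tgfbr3 rose (0.89 ± 0.14). Pmepa1, a target that dampens TGF-beta signalling, fell (log2 change -0.66 ± 0.12).

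Of 29 Wnt genes 8 fell and 5 rose (median log2 change 0.03). The secreted Wnt inhibitors Frzb and Sfrp1 were lower at day 63. Frzb had 4.73, 22.4 and 10.9 CPM at day 63, against 61.5, 108 and 93.4 CPM at day 14. Sfrp1 had 299, 296 and 344 CPM at day 63, against 1296, 1141 and 1222 CPM at day 14, with the groups apart in both genes. The receptors Fzd1 (log2 change -1.43 ± 0.15), Ror1 (-0.94 ± 0.16) and Ror2 (-0.62 ± 0.10) fell, and the feedback inhibitors Axin2 (0.81 ± 0.15) and Znrf3 (1.12 ± 0.20), both targets of the canonical pathway, rose. Growth and neurotrophic factors showed 14 of 28 lower and 7 higher, or 4 higher without BLM day 14 replicate 1 or 3 (median log2 change -0.32). The EGF receptor ligands Ereg (log2 change -2.95 ± 0.28) and Hbegf (-2.16 ± 0.29), the neurotrophic factors Bdnf (-2.82 ± 0.23) and Gdnf (-2.00 ± 0.22) and the platelet-derived factor Pdgfc (-2.73 ± 0.38) fell. Of the PDGF receptor chains, Pdgfrb fell, at 29.0 ± 6.04 CPM at day 63 and 74.7 ± 7.44 CPM at day 14, and Pdgfra had no call. The epithelial growth factors Fgf7 (log2 change 1.21 ± 0.12) and Hgf (0.80 ± 0.12) and the vessel-stabilising Angpt1 (0.80 ± 0.15) rose, with 90.3, 92.1 and 98.3 CPM at day 63, against 39.9, 42.7 and 38.7 CPM at day 14 for Fgf7. In the IGF list, 10 of 21 tested fell and 3 rose (median log2 change -0.46). Igf1, which encodes a growth factor for many cell types, fell by 2.68-fold, at 253 ± 29.4 CPM at day 63 and 679 ± 119 CPM at day 14. The imprinted noncoding RNA H19 had 0.249, 1.15 and 0 CPM at day 63, against 23.7, 17.3 and 15.2 CPM at day 14, and it fell. Binding proteins took both directions. Igfbp4 fell by 3.57-fold. Igfbp6 (chromosome 15, 102144362 to 102149511) had 8233, 6584 and 6436 CPM in the BLM day 63 libraries, against 1282, 1668 and 1413 CPM in the BLM day 14 libraries, a rise of 4.87-fold.

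Secreted immune mediators were mostly lower. Of 37 chemokine and cytokine genes 16 fell and 3 rose, or 1 with a mean of 5 CPM required or without BLM day 63 replicate 2 (median log2 change -0.75). The B cell attractant Cxcl13 had 3 counts over the BLM day 63 libraries and 228 over the BLM day 14 libraries, a ratio of 93.1-fold (95% counting interval 31.5 to 455) toward day 14. Neutrophil attractants Cxcl2 (15.4, 21.2 and 13.1 CPM at day 63, against 106, 119 and 133 CPM at day 14) and Cxcl3 (log2 change -3.22 ± 0.28) fell, as did the monocyte attractant Ccl2 (-1.82 ± 0.23), Cxcl12 (-1.92 ± 0.15) and the iron-binding protein Lcn2 (-3.33 ± 0.39). Lif, a cytokine of the interleukin-6 family, had 432, 529 and 414 CPM at day 63, against 840.2, 1071 and 1083 CPM at day 14, and it fell by 2.18-fold. The B cell survival factor Tnfsf13b (log2 change 0.77 ± 0.12) rose, at 79.2 ± 5.28 CPM at day 63 and 46.4 ± 2.63 CPM at day 14. Summed myeloid markers were lower at day 63 as given above, and their part in the chemokine result was not tested. Of the interferon response genes 8 of 41 tested (19.5%) rose, close to the 15.4% over all tested genes, and 3 (7.32%) fell, beside 16.9% over all (median log2 change 0.28). Guanylate-binding proteins Gbp2 (log2 change 1.01 ± 0.19) and Gbp3 (1.05 ± 0.25), the membrane protein Ifitm3 (0.50 ± 0.11) and the transcription factor Irf1 (0.66 ± 0.17) rose, and Zbp1 (-1.36 ± 0.35) and Iigp1 (-0.70 ± 0.18) fell. The Gbp and Ifitm genes have close relatives, and how reads were divided among copies is not given in the sources used here. Of 18 class I antigen presentation genes 2 (11.1%) rose, below the 15.4% over all tested genes, or 1 without BLM day 63 replicate 2, and none fell. Of 19 complement genes 7 fell and 6 rose, or 3 without any one of BLM day 63 replicates 1 and 2 and BLM day 14 replicates 1 and 2. Cfi, which encodes complement factor I, fell, at 3.11 ± 2.24 CPM at day 63 and 32.2 ± 2.04 CPM at day 14. The terminal component C7 rose, at 170.1 ± 19.1 CPM at day 63 and 77.7 ± 11.4 CPM at day 14.

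Genes known from alveolar and lipid-storing fibroblasts were mostly higher at BLM day 63. In that list 20 of 33 tested rose and 7 fell (median log2 change 0.80). The methyltransferase Inmt (chromosome 6, 55170626 to 55175043) had 1356, 1270.4 and 1343 CPM in the BLM day 63 libraries, against 110.2, 179 and 135 CPM in the BLM day 14 libraries. Its 3 day 63 values lay close together and far above those of day 14 (log2 change 3.22 ± 0.25). G0s2, an inhibitor of fat breakdown, had 2922, 1971 and 2430.5 CPM at day 63, against 386, 626 and 503 CPM at day 14, and it rose by 4.83-fold. The transcription factors Tcf21, which marks lipid-storing fibroblasts, and Tbx2 rose, with 155, 114 and 101 CPM at day 63, against 67.1, 80.4 and 65.2 CPM at day 14 for Tcf21. Slc7a10, an amino acid transporter, rose at 9.69 ± 9.51 CPM at day 63 and 1.18 ± 0.742 CPM at day 14, with an SD at day 63 close to its mean. Some members went the other way. Lipoprotein lipase, Lpl, had 208, 386 and 415 CPM at day 63, against 936, 1019.5 and 984 CPM at day 14, and it fell. Palmd, which encodes palmdelphin, had 3.24, 1.72 and 2.45 CPM at day 63, against 20.5, 34.4 and 32.6 CPM at day 14, and it fell with no overlap. Figf, which encodes VEGF-D, fell by 1.54-fold.

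The adventitial list had 12 of 26 tested higher and 7 lower (median log2 change 0.45). Gelsolin, Gsn (chromosome 2, 35256380 to 35307892), which severs actin filaments, had 6396, 5319 and 5117 CPM in the BLM day 63 libraries, against 699, 956 and 869 CPM in the BLM day 14 libraries, a rise of 6.67-fold. Clec3b (log2 change 1.28 ± 0.22) and Cd34 (0.95 ± 0.13) rose, and Anxa3 (-1.88 ± 0.22) and Cd248 (-1.79 ± 0.21) fell. Without BLM day 14 replicate 1, 9 members were higher and 7 lower. Of the retinoid genes 6 of 15 tested rose and 3 fell. Lrat, which esterifies retinol for storage, had 415, 256 and 272 CPM at day 63, against 30.0, 43.3 and 50.3 CPM at day 14, and it rose by 7.56-fold. Enzymes that make retinal, Adh1 (log2 change 1.24 ± 0.16) and Adh7 (1.83 ± 0.47), and Aldh1a1 (1.41 ± 0.15), which oxidises it, rose. The retinoic acid synthase Aldh1a2 (log2 change -1.65 ± 0.29) and Cyp26b1 (-2.08 ± 0.48), which degrades retinoic acid, fell.

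Mesenchymal transcription factors divided, with 13 of 39 tested higher and 10 lower. Runx1 (42.7 ± 9.56 CPM at day 63 and 119 ± 11.1 CPM at day 14) and Runx2 (23.3 ± 4.06 CPM at day 63 and 64.2 ± 0.902 CPM at day 14), regulators of bone and blood lineages, fell by 2.78-fold and 2.77-fold. Tfap2a, which works in neural crest and skin, had 6.47, 8.90 and 11.3 CPM at day 63, against 24.4, 46.3 and 37.3 CPM at day 14. Homeobox genes Hoxa2 (log2 change 1.38 ± 0.23) and Hoxb5 (1.12 ± 0.13), Tbx2 (1.00 ± 0.11) and Osr1 (0.77 ± 0.11) rose, as did Snai2 (0.90 ± 0.14). Among ion channel and axon guidance genes 12 of 35 tested fell and 8 rose. The adhesion molecules Chl1 (2.49 ± 2.07 CPM at day 63 and 36.8 ± 8.82 CPM at day 14) and Ncam1 (3.52 ± 1.84 CPM at day 63 and 21.6 ± 6.50 CPM at day 14) fell, and so did the mechanically gated channel Piezo2, with 38.6, 64.6 and 65.8 CPM at day 63, against 136, 159 and 158 CPM at day 14. The guidance cue Ntn1 (log2 change 1.48 ± 0.22) and the potassium channel Kcnk2 (2.58 ± 0.54) rose.

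**Figure D3:**
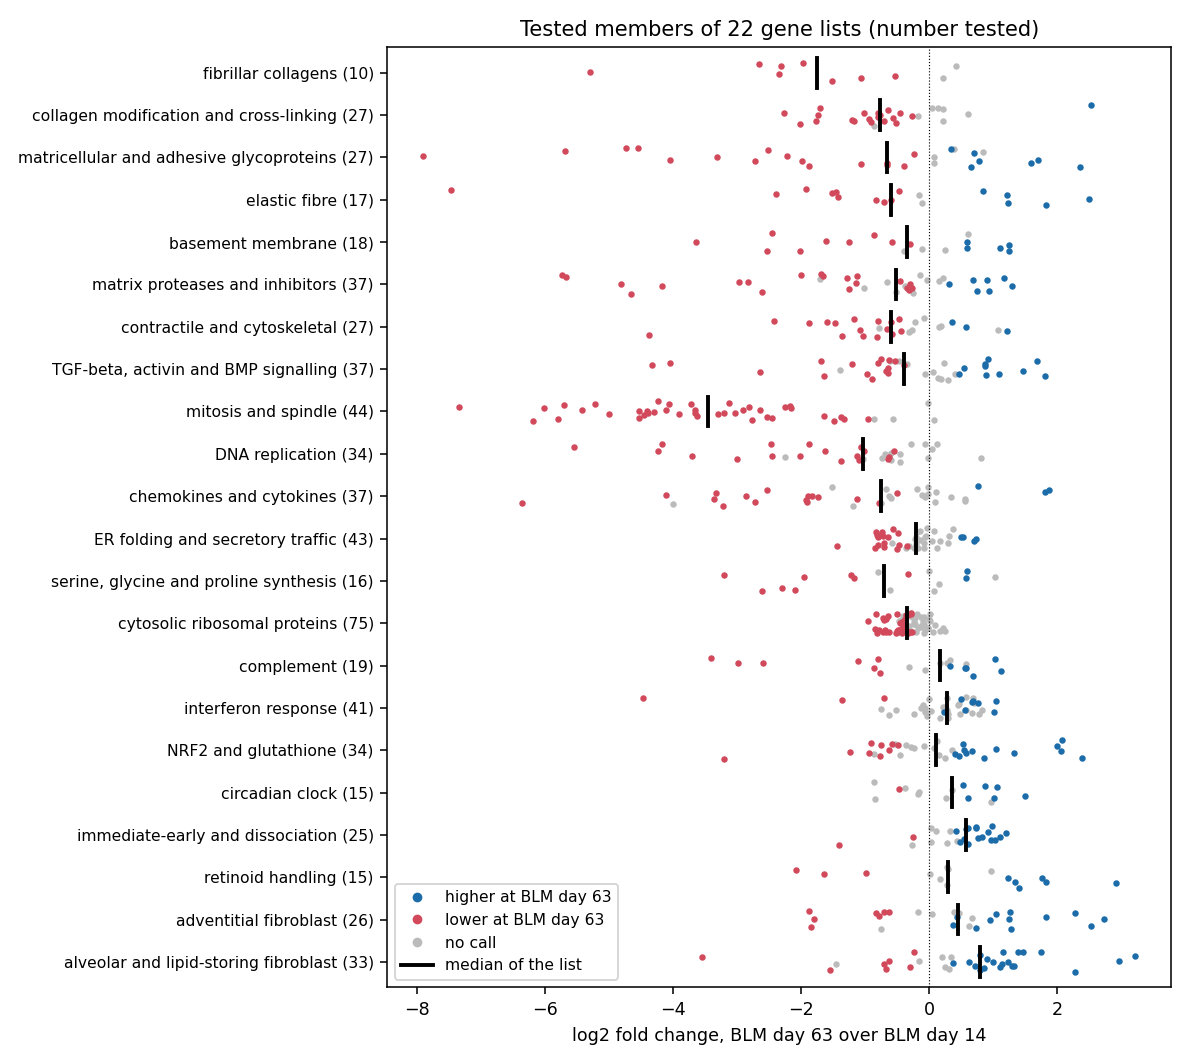
Each point is a tested member of 1 of 22 gene lists (number tested in brackets), placed by its log2 fold change of BLM day 63 over BLM day 14. Blue members were higher, red members lower and grey members not called, and the black bar is the median of the list, which runs from -3.45 for mitosis to 0.80 for alveolar and lipid-storing genes.

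Genes of amino acid supply, protein synthesis and secretion were more often lower than higher. In amino acid synthesis and transport 8 of 16 tested fell and 2 rose, or 1 without BLM day 63 replicate 1 or BLM day 14 replicate 3 (median log2 change -0.71). Asparagine synthetase, Asns, had 7.72, 12.6 and 9.78 CPM at day 63, against 92.9, 48.4 and 43.4 CPM at day 14, and it fell. The serine synthesis enzyme Psat1 (log2 change -2.30 ± 0.45) and the proline synthesis enzyme Aldh18a1 (-1.17 ± 0.19) fell. The transporter Slc7a5 fell by 4.28-fold, while the glutamine carrier Slc1a5 (log2 change 0.60 ± 0.16) rose. Leaving out BLM day 63 replicate 3 left 4 lower members, and leaving out BLM day 14 replicate 1 left 5. Secretory pathway genes showed 16 of 43 lower and 4 higher (median log2 change -0.21), and the lower ones included the translocon subunits Sec61a1 (-0.71 ± 0.12) and Sec61b (-0.70 ± 0.11) and the retrieval receptors Kdelr1 (-0.56 ± 0.09) and Kdelr2 (-0.81 ± 0.15). Cytosolic ribosomal proteins were lower in 38 of 75 tested and higher in none, by small amounts (median log2 change -0.34). Rps2 (log2 change -0.81 ± 0.11), Rpsa (-0.72 ± 0.12) and Rpl10a (-0.63 ± 0.09) were examples, and many of these genes have near-identical pseudogenes. Under upper quartile scaling, 32 of them were lower and 1 higher. In limma-voom, with a mean of 5 CPM required, with a replicate block and without BLM day 14 replicate 1, 1 was higher as well. In glycolysis and hypoxia 8 of 24 fell and 4 rose, with Hk2 (log2 change -1.27 ± 0.20), Ldha (-1.04 ± 0.14) and Hif1a (-0.95 ± 0.15) lower and Aldoa (0.47 ± 0.10) higher. Oxidative phosphorylation genes mostly had no call, with 9 of 47 lower and 2 higher, or 5 lower and 1 higher without BLM day 63 replicate 2 or BLM day 14 replicate 1 and 1 higher without BLM day 14 replicate 3.

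Detoxification genes took both directions, 13 of 34 NRF2 and glutathione genes higher and 9 lower. The glutathione transferases Gstm1 (110.4 ± 4.46 CPM at day 63 and 20.9 ± 6.47 CPM at day 14), Gsta3 (41.5 ± 12.3 CPM at day 63 and 9.93 ± 1.60 CPM at day 14) and Gsta4 (193 ± 26.1 CPM at day 63 and 77.5 ± 14.7 CPM at day 14) rose, and their families hold close copies. Gclm, a subunit of the enzyme that starts glutathione synthesis, fell by 2.35-fold, and mitochondrial Sod2 fell by 1.70-fold while extracellular Sod3 rose by 1.82-fold. In cholesterol synthesis and uptake 6 of 24 rose and 2 fell. Without BLM day 63 replicate 2 or 3 or BLM day 14 replicate 1 or 3, 2 to 3 rose, and without BLM day 63 replicate 1 or BLM day 14 replicate 2, 1 fell, with Insig1 (log2 change 1.45 ± 0.19) higher. Among 17 LXR target and sterol export genes 2 rose and 2 fell (Abcg1 and Mylip), and neither rise held its call when single libraries were left out. Abcg1 had few counts, 1 at day 63 and 12 at day 14. With a mean of 5 CPM required or with only the 6 libraries, 1 member was lower. Lysosomal genes showed 7 of 40 (17.5%) higher, close to the 15.4% over all tested genes, and 12 lower, and ribosome biogenesis genes 3 of 29 higher and 7 lower, or 4 lower without BLM day 63 replicate 2 or 3 and 2 without BLM day 14 replicate 1. Of 30 p53 targets and cycle inhibitors 9 fell and 5 rose, or 3 without BLM day 63 replicate 1 or BLM day 14 replicate 2 or 3. Cdkn1a, the p21 inhibitor, had 1532, 1369 and 1549 CPM at day 63, against 926, 1069 and 1001 CPM at day 14, and it rose (log2 change 0.57 ± 0.15, adjusted p = 0.00293), and lamin B1 (Lmnb1) fell by 5.42-fold.

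Immediate-early genes, which also respond to tissue digestion, were mostly higher at day 63. Of 25 tested, 16 rose and 2 fell, or 1 without BLM day 63 replicate 1 or 2 or BLM day 14 replicate 1 or 2 (median log2 change 0.57). Atf3 (log2 change 1.20 ± 0.18), Nr4a2 (1.11 ± 0.22), Fosb (1.03 ± 0.18) and Egr1 (0.98 ± 0.12) rose most among the named members. Fos, a subunit of the AP-1 factor, had 9964, 9857 and 9589 CPM at day 63, against 6835, 6498 and 8537 CPM at day 14. Ier2 had 11387, 9895 and 9933 CPM at day 63, against 5870.4, 7709 and 6919 CPM at day 14. Zfp36, which destabilises short-lived RNAs, had 13136, 11185 and 12716 CPM at day 63, against 6005, 7984 and 6961 CPM at day 14. All 3 genes rose without overlap of the groups, and the part of tissue handling in these and other results was not tested. Myc, a growth factor-induced transcription factor, fell, at 3.90 ± 1.61 CPM at day 63 and 10.4 ± 2.51 CPM at day 14. Of 15 clock genes 6 rose and 1 fell, or 2 without BLM day 14 replicate 3, with Per1 (log2 change 1.01 ± 0.17), Tef (1.06 ± 0.14) and Hlf (1.50 ± 0.19) higher and Bhlhe40 (-0.47 ± 0.13) lower. The hour at which lungs were taken is not in the labels. Of 14 glucocorticoid-induced and metallothionein genes 5 rose and 6 fell, or 3 without BLM day 14 replicate 1. Fkbp5 (15.7 ± 0.811 CPM at day 63 and 82.0 ± 32.6 CPM at day 14), Zbtb16 (25.3 ± 7.44 CPM at day 63 and 71.9 ± 60.0 CPM at day 14) and Mt2 (85.5 ± 18.9 CPM at day 63 and 221 ± 35.5 CPM at day 14) fell. The libraries of Zbtb16 overlapped between the groups, and its adjusted p in edgeR's test was 0.254 without BLM day 14 replicate 1. Among the members that rose, the cell cycle inhibitor Cdkn1c did so by 4.23-fold.

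Several of the largest changes lay in genes outside the groups above. The hyaluronan-degrading protein Cemip had 17.4, 27.3 and 24.2 CPM at day 63, against 647, 629 and 722 CPM at day 14, and it fell by 29.1-fold. Ddah1, which clears an inhibitor of nitric oxide synthesis, fell by 47.6-fold at 0.941 ± 0.471 CPM at day 63 and 45.2 ± 5.46 CPM at day 14. Shisa6, an accessory protein of glutamate receptors, had 1 count at day 63 and 130 at day 14, a ratio of 159-fold (95% counting interval 28.1 to 6337) toward day 14, and LOC102642295, an entry with no role given here, had 1 count at day 63 and 178 at day 14, a ratio of 218-fold (95% counting interval 38.6 to 8659). The mitotic kinase Nek2 also fell (log2 change -4.62 ± 0.45). At the other end, Snhg11 had 18.4, 13.2 and 25.8 CPM at day 63, against 0.353, 1.49 and 0.829 CPM at day 14, and it rose by 20.4-fold. Periplakin, Ppl, a junction protein, had 23.4, 13.8 and 15.1 CPM at day 63, against 2.83, 1.20 and 1.11 CPM at day 14, and it rose. Cyp2e1 (50.8 ± 15.6 CPM at day 63 and 6.02 ± 1.01 CPM at day 14), a xenobiotic-metabolising enzyme, and Aldh3a1 (63.2 ± 9.75 CPM at day 63 and 8.05 ± 5.12 CPM at day 14), an aldehyde dehydrogenase, rose by 8.42-fold and 7.62-fold. Angpt2 (log2 change 2.98 ± 0.32), which destabilises vessels, Tmem100 (2.94 ± 0.24), Mapt (2.80 ± 0.37), which encodes tau, and the hemidesmosome collagen Col17a1 (2.89 ± 0.35) also rose. As differences in CPM the greatest gains were those of Igfbp6, Zfp36, Gsn, Ppap2b and Dcn, and the greatest losses those of Sparc, Eef1a1, Col3a1, Fstl1 and Col4a2.

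In silica over the same days fewer genes were called. Between SiO2 day 63 and SiO2 day 14 the same model called 411 genes (3.52%), 178 higher (1.53%) and 233 lower (2.0%), beside the 32.3% for BLM, and the difference between the models was tested as an interaction. The change at BLM day 63 against day 14 differed from that in silica for 2160 genes (18.5%), being more positive in BLM for 1028 (8.81%) and more negative for 1132 (9.7%). For Spp1 the BLM change of -7.90 stood beside 0.97 ± 0.31 in silica, where means were 165 ± 64.9 CPM at SiO2 day 63 and 84.4 ± 40.3 CPM at SiO2 day 14. The interaction (log2 change -8.87 ± 0.52) had an adjusted p = 5.17e-13 in edgeR's test. The log2 interaction was negative too for Cthrc1 (-5.86 ± 0.55), Postn (-5.81 ± 0.40), Thbs4 (-6.64 ± 0.70) and Cemip (-5.28 ± 0.37). Postn had 65.8 ± 7.58 CPM at SiO2 day 63 and 31.4 ± 13.8 CPM at SiO2 day 14. Thbs4 encodes a thrombospondin and had 3.24, 3.44 and 3.34 CPM at day 63, against 83.7, 86.7 and 64.7 CPM at day 14 in the BLM libraries. Of the fibrillar collagens 8 of 10 had a called interaction, and the log2 interaction of Col1a1 was -1.75 ± 0.19, with 1228 ± 24.3 CPM at SiO2 day 63 and 2293 ± 367 CPM at SiO2 day 14. Of the mitotic genes 27 of 44 had one, and edgeR's test called none of them in silica itself, where their median log2 change was -0.18.

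In the alveolar and lipid-storing list 27 of 33 tested genes had a called interaction in either direction. The log2 interaction of Inmt was 3.57 ± 0.34, with means of 385 ± 11.7 CPM at SiO2 day 63 and 488 ± 218 CPM at SiO2 day 14. Log2 interactions of Slc7a10 (4.47 ± 0.82), Ppl (3.82 ± 0.60), Lrat (3.66 ± 0.41), Mapt (3.61 ± 0.49) and Col17a1 (3.61 ± 0.45) were among the 10 largest in the positive direction under the rule for named genes. Lrat averaged 122 ± 22.2 CPM at SiO2 day 63 and 203 ± 102 CPM at SiO2 day 14. Both silica means lay between those of BLM day 63 and BLM day 14.

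**Figure D4:**
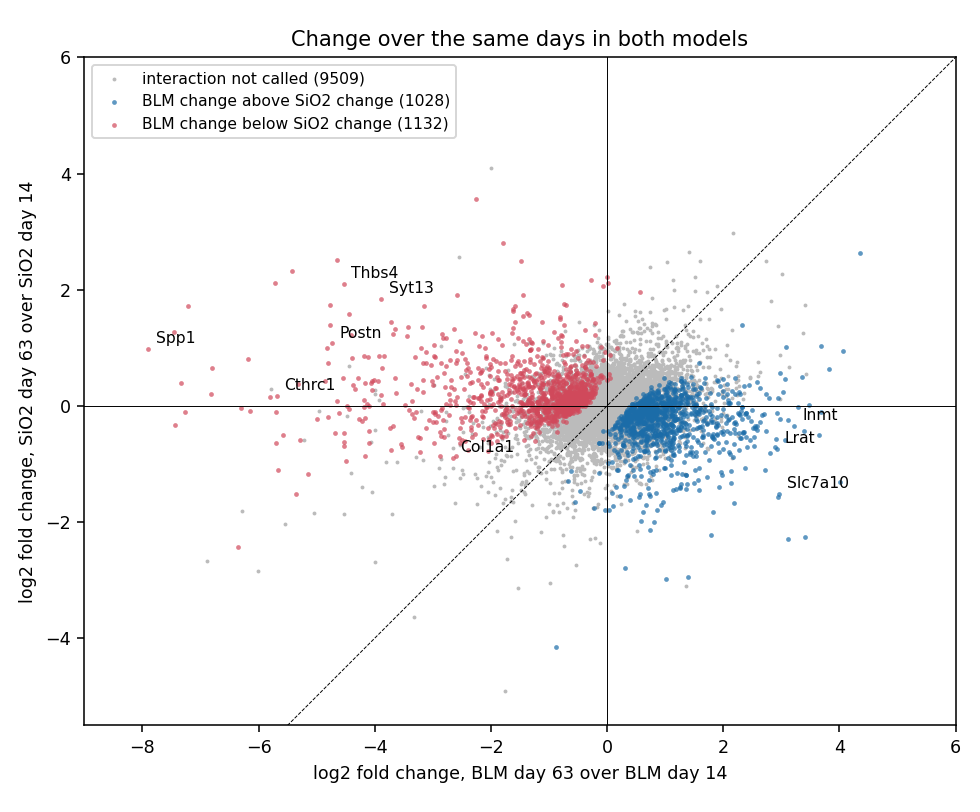
Each point is a tested gene, placed by its log2 fold change of day 63 over day 14 in BLM (x axis) and in SiO2 (y axis), with the dashed line where both are equal. Coloured genes had a called interaction, 1028 above (blue) and 1132 below (red) the SiO2 change, and they spread along the BLM axis more than along the SiO2 axis.

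Against untreated mice, BLM day 63 libraries differed in 1343 genes (11.5%; 703, or 6.02%, higher and 640, or 5.48%, lower) and BLM day 14 libraries in 4585 (39.3%). These comparisons share libraries with each other and with that of day 63 against day 14, so no overlap between them is counted and values are set side by side. Untreated mice were taken only as day 0. In the comparisons with them bleomycin, age and harvest cannot be told apart, nor can time after bleomycin and age between days 63 and 14. The first count rested in part on single libraries, since leaving out BLM day 63 replicate 3 gave 814 and leaving out untreated replicate 1 gave 795. Col1a1 averaged 565 ± 53 CPM at BLM day 63, 3562 ± 345 CPM at BLM day 14 and 689 ± 27.4 CPM in untreated mice, and Inmt averaged 1323 ± 46.2 CPM at BLM day 63, 141 ± 35.0 CPM at BLM day 14 and 1285 ± 64.0 CPM in untreated mice. The day 63 log2 change from untreated was -0.29 ± 0.13 for Col1a1 (edgeR's adjusted p = 0.181) and 0.04 ± 0.23 for Inmt (adjusted p = 0.939). Neither was called, but other members of their lists were. Of 33 tested alveolar and lipid-storing genes, 12 were lower than untreated at BLM day 63 and 2 higher. Of 10 tested fibrillar collagens, 3 were higher than untreated and none lower. Spp1 was still higher than in untreated mice (8.95 ± 4.61 CPM against 0.909 ± 0.143 CPM, log2 change 3.22 ± 0.86, edgeR's adjusted p = 0.0125), a call lost in limma-voom (adjusted p = 0.287) and without BLM day 63 replicate 2, untreated replicate 1 or untreated replicate 2 (highest edgeR adjusted p = 0.063). Tnc was higher too (68.3 ± 9.25 CPM against 17.3 ± 6.78 CPM, log2 change 1.91 ± 0.22). Frzb, which was lower than at day 14, stood above untreated at day 63, with 4.73, 22.4 and 10.9 CPM at BLM day 63 against 0.259, 0 and 0.468 CPM in untreated mice. Its BLM day 63 libraries differed widely among themselves. Col28a1, a collagen of peripheral nerve, had 32.9, 64.6 and 49.6 CPM at BLM day 63, 48.0, 37.1 and 54.7 CPM at BLM day 14 and 0.777, 3.27 and 2.34 CPM in untreated mice, so that days 63 and 14 overlapped and both lay above untreated. Log2 changes from untreated were also positive for Piezo2 (3.19 ± 0.31), Gdnf (3.16 ± 0.37), the natriuretic peptide clearance receptor Npr3 (3.11 ± 0.26), the BMP family ligand Gdf6 (3.11 ± 0.32) and Col24a1 (3.03 ± 0.28). They were negative for Palmd (log2 change -3.08 ± 0.30), Slc7a10 (-2.16 ± 0.39), the zinc finger factor Zbtb16 (-2.15 ± 0.40), the transcription factor Cebpb (-1.81 ± 0.30) and Scube2 (-1.64 ± 0.20). G0s2 was in between, at 2441 ± 476 CPM at BLM day 63, 505 ± 120.2 CPM at BLM day 14 and 4218 ± 601 CPM in untreated mice.

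**Figure D5:**
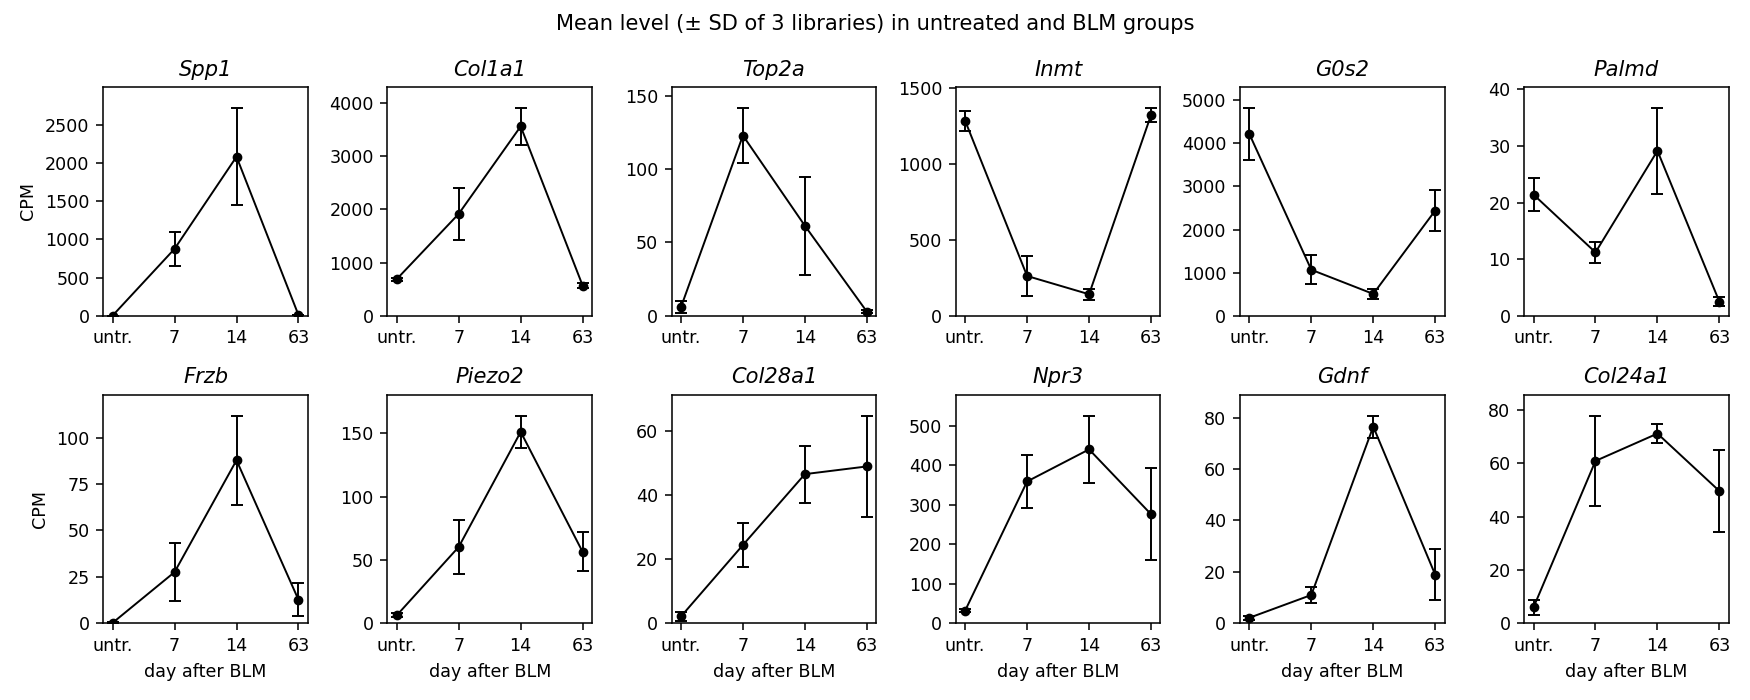
Each panel shows mean CPM with SD of 3 libraries for 1 gene in untreated mice and at days 7, 14 and 63 after BLM. The first 5 genes peaked or dipped at day 7 or 14 and moved back toward or past the untreated mean by day 63, the mean of Palmd was lowest at day 63, and the 6 genes of the lower row remained above the untreated mean, for example Col24a1 at 49.6 ± 15.4 CPM at day 63 and 5.98 ± 2.92 CPM in untreated mice.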

How the data were processed

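Deposited files held whole-number counts per gene symbol for each library of sorted Col1a2-GFP fibroblasts. Per the submitters' processing notes, the authors used Bowtie2 2.2.5 and mm10 before depositing these counts. The annotation, the counting tool and the use of strand are not given in the sources used here, so reads of overlapping antisense genes and of near-identical copies could not be told apart. All 23204 symbols entered, and 11669 passed edgeR's filterByExpr (minimum count 10), which held 99.7% of the counts. They were tested with edgeR 4.0.16 in R 4.3.3 (TMM scaling, quasi-likelihood test) in 1 model of the 7 groups and 21 libraries with 14 residual degrees of freedom. Calls had a Benjamini-Hochberg adjusted p under 0.05 over all genes tested. The steps were tested on simulated data. Alternatives were DESeq2 1.42.0, limma-voom (limma 3.58.1), other scalings, filters and sets of libraries, a replicate block, and leaving out each library.

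The members and gene lists were chosen with earlier results of these data known, and the alternatives for comparisons with untreated mice and for single genes in them and in the interaction were added after the data were seen. Named genes came from a rule. It took the 15 largest rises and the 15 largest falls among called genes that reached 10 CPM in 1 group and did not overlap, the 10 largest gains and losses in CPM, from each list up to 8 members by adjusted p, up to 3 called members that moved against its majority and up to 3 by mean CPM, the 10 extremes of the interaction and of the comparison with untreated mice in each direction, and 19 genes named outright. Markers at no count were named after their values were seen. Positions are from the GENCODE annotation on GRCm38 and promoters from RefSeq on GRCm38.p6. A few genes the rule named are not reported here.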

Additional observations from a re-analysis of the deposited data

Results flagged for a closer look

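The change between day 63 and day 14 differed between BLM and SiO2 for 2160 genes in edgeR's interaction test at an adjusted p under 0.05. For the named genes the value is the log2 change in BLM minus that in SiO2. It was -8.87 for Spp1, -6.64 for Thbs4, -5.86 for Cthrc1, -5.81 for Postn and -5.28 for Cemip, so these changes were more negative in BLM. For Col1a1 it was -1.75. On the other side it was 4.47 for Slc7a10, 3.82 for Ppl, 3.66 for Lrat, 3.61 for Mapt, 3.61 for Col17a1 and 3.57 for Inmt. No test for single outlying values within groups of 3 libraries was run, and the effect of leaving out each library is given below.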

How the results depend on the processing

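The count of 3768 genes was 3763 with DESeq2's size factors in edgeR, 3745 with upper quartile scaling, 3362 in DESeq2, 3711 in limma-voom, 3635 without a filter, 3310 with a mean of 5 CPM required and 3521 with only the 6 libraries. It was 3006 to 3328 when a library was left out, with 1397 to 1596 genes higher and 1609 to 1759 lower. The interaction count of 2160 lay between 1775 and 2093 without a library of the 4 groups, with 814 to 980 genes more positive in BLM and 961 to 1113 more negative. The count against untreated mice (1343) ranged from 795 to 1219 without a library, with 814 when BLM day 63 replicate 3 was left out and 795 when untreated replicate 1 was, and the cause was not tested. Of the mitotic genes 12 were lower with a mean of 5 CPM required and 24 with only the 6 libraries, since fewer of them were tested in both. Of 1344 counts of list members 1278 stayed within 1.5 times the reported count. Of 3379 values of named genes 3359 kept their direction and side of the threshold, 13 lost and 4 gained a call. Among uncalled genes the log2 change of BLM day 63 over BLM day 14 ran from -0.17 to 0.29 for Col28a1 and from -0.022 to 0.33 for Scube2 when a library was left out, turning negative without BLM day 63 replicate 2 and without BLM day 14 replicate 2 for Col28a1 and without BLM day 14 replicate 1 for Scube2. All 240 values of the 12 genes named for the interaction kept their call. A gene with few counts at day 63 has an imprecise fold, and depth limits it.

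No pairing of the libraries by the replicate numbers in the titles was seen. Deviations of BLM day 63 and BLM day 14 libraries with the same number correlated at -0.038 to 0.0064 across genes. With 3 libraries in each group, these values cannot show what the numbers stand for. With the number as a replicate block, 3724 genes were called for BLM day 63 against BLM day 14 (1773 higher and 1951 lower), 2097 for the interaction (1002 more positive and 1095 more negative in BLM) and 1281 against untreated mice.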

Other observations

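Of 40 lysosomal genes tested, 12 (30.0%) were lower and 7 (17.5%) higher at BLM day 63, beside 16.9% and 15.4% over all tested genes. The cysteine proteases Ctsh (log2 change -1.58 ± 0.31) and Lgmn (-0.84 ± 0.14) fell, as did the membrane protein Cd63 (-0.78 ± 0.10), which had 194, 191 and 197 CPM at day 63, against 336, 330.2 and 331 CPM at day 14. Lysosomal acid lipase, Lipa, which frees cholesterol and fatty acids, rose, at 537 ± 16.6 CPM at day 63 and 382 ± 57.2 CPM at day 14. Cholesterol synthesis genes had no shared direction beyond their counts of 6 higher and 2 lower among 24 tested. Ebp, a sterol isomerase, fell by 2.57-fold. Among the respiratory chain genes Cox5a (log2 change -0.91 ± 0.16) fell.

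Among p53 targets and inhibitors of the cell cycle, 9 of 30 tested (30%) fell and 5 (16.7%) rose, the latter near the share over all tested genes. Sesn1 (log2 change 1.27 ± 0.22) and Btg2 (0.69 ± 0.11) were among those that rose, as was Cdkn1a. The death receptor Tnfrsf10b (-1.57 ± 0.40) fell. Cdkn2a was not tested because of low counts. In the complement list C6 fell, at 44.2 ± 5.75 CPM at day 63 and 75.2 ± 3.19 CPM at day 14, while C7, the next component of the same membrane attack complex, rose. C1qtnf6 (log2 change -2.59 ± 0.22) fell and its relative C1qtnf7 (1.03 ± 0.12) rose. Stress genes of the secretory pathway included members that rose, among them Herpud1 (log2 change 0.52 ± 0.13) and Sdf2l1 (0.71 ± 0.15), while Pdia5 (-1.44 ± 0.16), a disulfide isomerase, fell.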
